A study of Arabidopsis thaliana with 9 samples.

Results

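Leaves of Arabidopsis thaliana exposed to silver nanoparticles were compared with leaves of the same series without silver, by RNA sequencing. The comparison used 6 of the 9 libraries of the series, those labelled AgNPs (3 libraries, silver nanoparticles) and CK (3 libraries, taken as the untreated control because the labels name no other), and every gene row of the deposited table. The other 3 libraries, labelled Ag+ (silver ions), entered the same statistical fit and served for a direct test of nanoparticles against ions. All plants were of the ecotype Columbia, wild type as far as the labels say, and had 6 days in MS medium, commonly used for plant culture. The dose, the particle size and the length of exposure are not stated in the labels. These also speak of pooled RNA and leave unsaid whether replicate libraries derive from different cultures, so that p-values cover the spread among these libraries alone, which may be technical.

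Silver nanoparticles can release silver ions, which resemble copper ions in charge and bind to copper sites of proteins, among them the ethylene receptors. In plants, iron shortage is signalled through a cascade of basic helix-loop-helix (bHLH) transcription factors. Its subgroup Ib (BHLH38, BHLH39, BHLH100 and BHLH101) is transcribed when iron is scarce, whereas ferritins, the plastid proteins that store iron, are transcribed when iron is plentiful. Copper and iron status are also linked at the superoxide dismutases, enzymes that remove superoxide and exist in a copper/zinc form and an iron form.

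Total counts were 17293516, 19631828 and 17673405 in AgNPs 1 to 3, and 19876151, 17540834 and 17454525 in CK 1 to 3. The leaf mesophyll markers RBCS1A, CA1, LHCB1.3 and RCA summed to 37720 to 50155 CPM (counts scaled by library size with TMM factors) in the AgNPs libraries, against 28295 to 42879 CPM in CK. Root transcripts were present in every library: the median over 20 root markers was 2.8, 0.96 and 0.799 CPM in AgNPs 1 to 3, against 0.62, 0.654 and 1.13 CPM in CK 1 to 3, and at most 1 of the 20 markers stood at 0 in any of them. Their sum, nearly all of it from the beta-glucosidase gene PYK10, was 2281 to 3306 CPM in AgNPs and 1892 to 2038 CPM in CK. AgNPs 1 stood apart by the endodermis gene CASP1, with 256 counts against 55 and 32 in AgNPs 2 and AgNPs 3 and 34 to 84 in CK. Of 8 seed storage and oil body markers, 2 or 3 stood at 0 in each AgNPs library and 5 or 6 in each CK library, and they summed to 5.81 to 15.4 CPM with AgNPs against 0.248 to 1.07 CPM in CK. Heat-shock genes also differed within groups, with 647, 1824 and 2325 CPM in AgNPs 1 to 3, against 328, 307 and 1586 CPM in CK 1 to 3. The ribosomal DNA region held 0.3561% to 1.239% of counts in AgNPs and 0.6706% to 1.422% in CK. The part of these differences in the results was not tested except where a value without AgNPs 1 or CK 3 is given.

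Of 19889 genes tested, edgeR's quasi-likelihood test called 660 (3.32%) at an adjusted p under 0.05, 444 higher (2.23%) and 216 lower (1.09%) in AgNPs than in CK. Of these, 305 were at least 2-fold higher (1.53%) and 127 at least 2-fold lower (0.639%). The 3 AgNPs libraries lay entirely above the 3 CK libraries in 2274 genes (11.4%) and entirely below in 2217 (11.1%), and the ranges of the 660 called genes did not overlap. The count depended on single libraries. It was 224 without AgNPs 2, 261 without AgNPs 3 and 245 without CK 2, and 1603 without both AgNPs 1 and CK 3.

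The clearest group outside the copper and ethylene genes was iron. All 4 bHLH genes of subgroup Ib, nearly absent in CK, rose in AgNPs, BTS, an E3 ligase that restrains the iron deficiency response, rose as well, and the 3 leaf ferritin genes FER1, FER3 and FER4 fell. In bulk leaf samples, fewer cells with a transcript and less of it per cell cannot be told apart. Because these genes moved together, the 250 bases upstream of the annotated start were searched in 7 genes, the 4 bHLH genes, BTS, FER1 and FER3, for the letters CACGTG, the G-box, to which many bHLH and bZIP transcription factors bind and which reads the same on both strands. The motif and the genes were chosen with the expression values known. It was found in 4 of the 7, with 1 copy each in BHLH38, BHLH100 and FER3 and 3 in BTS, and in 1779 of 27431 promoters of the same length (6.49%). The 4 upstream stretches are shown 5′ to 3′ on the strand of the gene, from RefSeq TAIR10.1, with the motif in capitals. A match is a description of the letters and not evidence that a factor binds there, and a count over 7 chosen genes is no test of enrichment.
BHLH38, chr3:21085246-21085495, minus strand: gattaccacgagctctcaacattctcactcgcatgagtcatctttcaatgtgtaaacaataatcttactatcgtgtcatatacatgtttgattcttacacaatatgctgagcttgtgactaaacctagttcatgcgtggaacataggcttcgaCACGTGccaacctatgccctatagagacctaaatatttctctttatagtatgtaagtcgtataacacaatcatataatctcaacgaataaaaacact
BHLH100, chr2:17199455-17199704, minus strand: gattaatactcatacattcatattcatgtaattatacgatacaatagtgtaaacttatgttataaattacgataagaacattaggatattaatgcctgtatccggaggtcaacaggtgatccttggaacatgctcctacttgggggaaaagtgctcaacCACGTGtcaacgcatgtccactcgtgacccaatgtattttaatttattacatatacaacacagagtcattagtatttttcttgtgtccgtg
BTS, chr3:6273716-6273965, plus strand: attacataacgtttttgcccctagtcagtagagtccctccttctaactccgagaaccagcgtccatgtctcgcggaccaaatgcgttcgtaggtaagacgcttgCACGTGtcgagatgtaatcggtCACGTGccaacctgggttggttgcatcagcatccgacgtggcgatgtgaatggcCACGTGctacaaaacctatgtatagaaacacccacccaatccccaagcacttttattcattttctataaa
FER3, chr3:20816036-20816285, minus strand: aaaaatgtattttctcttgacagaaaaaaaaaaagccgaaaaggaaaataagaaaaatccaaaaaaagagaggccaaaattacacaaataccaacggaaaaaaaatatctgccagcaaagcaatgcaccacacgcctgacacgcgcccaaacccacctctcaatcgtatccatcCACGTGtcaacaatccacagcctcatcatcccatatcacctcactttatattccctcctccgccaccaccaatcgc
In the first of these stretches the motif began 97 bases before the start of BHLH38, and in the others 91 bases before BHLH100 and 76 before FER3, so that it lay in the last 100 bases in these 3 genes. In BTS the copy farthest from the gene began 146 bases before it. The stretches of BHLH39, BHLH101 and FER1 did not hold these letters, which says nothing about the factors that act there.

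BHLH100 (AT2G41240) had 3.2, 10.6 and 3.09 CPM in AgNPs 1 to 3, against 0, 0 and 0.0512 CPM in CK 1 to 3. The groups did not overlap, AgNPs 2 was the highest library and 2 of the CK libraries held no read. Summed over each group, AgNPs held 325 counts and CK 1, or 336 times as many after scaling (95% counting interval 59.9 to 13318, edgeR adjusted p = 0.00433). BHLH38 (AT3G56970) reached 244 counts in AgNPs and 1 in CK, or 252 times as many (44.9 to 10009, adjusted p = 0.0117). BHLH101 (AT5G04150) reached 253 counts in AgNPs and 3 in CK, or 87.2 times as many (29.5 to 426, adjusted p = 0.00646). The same library, AgNPs 2, was the highest for both, with 7.73 CPM of BHLH38 and 7.38 CPM of BHLH101. BHLH39 (AT3G56980), which lies beside BHLH38 on chromosome 3, averaged 2.82 ± 1.62 CPM in AgNPs and 0.0853 ± 0.148 CPM in CK (SD, n = 3 each, log2 fold change 4.92, SE 0.97, adjusted p = 0.0267). The 4 genes are related in sequence, so that reads of one may in part have been counted for another. BTS (AT3G18290) had 169, 193 and 171 CPM in AgNPs 1 to 3 against 92, 92.6 and 118 CPM in CK 1 to 3, with every AgNPs library above every CK library (log2 fold change 0.82, SE 0.13, adjusted p = 0.0113). Of 11 genes of the iron deficiency list, 9 were tested, of which 5 rose, 0 fell and 4 were not called, beside 2.23% higher among all genes. The ranges lay above CK in 8 of the 9, beside 11.4% of all genes, and the median log2 fold change was 1.05, also with the low-count genes at the ratios given. The 4 bHLH genes, with 1 to 5 counts over the 3 CK libraries, passed the filter on low counts through AgNPs. They could be called only as higher, so these counts cannot be read against the shares over all genes. Not called were OPT3, a phloem iron transporter (0.83, adjusted p = 0.0786), FRO3, a mitochondrial ferric reductase (0.44, adjusted p = 0.0871), PYE, a bHLH repressor of the response (0.31), and FIT, the bHLH factor of the root response (1.05). IRT1 and FRO2, the iron transporter and the ferric reductase of the root surface, were below the filter on low counts.

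Ferritin transcripts moved the other way. FER1 (AT5G01600) had 165, 98.4 and 107 CPM in AgNPs 1 to 3, against 659, 975 and 445 CPM in CK 1 to 3. The highest AgNPs library was well below the lowest CK library, and the CK libraries differed more among themselves than the AgNPs libraries. FER1 was 5.61-fold lower (log2 fold change -2.49, SE 0.33, adjusted p = 0.00534). FER3 (AT3G56090) averaged 63.6 ± 5.19 CPM in AgNPs and 159 ± 46.4 CPM in CK (2.5-fold lower, adjusted p = 0.01), and FER4 (AT2G40300) averaged 61.4 ± 3.55 CPM in AgNPs and 133 ± 33.3 CPM in CK (2.16-fold lower, adjusted p = 0.0113). The seed ferritin gene FER2 (-0.08) and NEET, an iron-sulfur protein (-0.64, adjusted p = 0.0865), were not called. Of the 5 iron storage genes 3 fell and 0 rose, beside 1.09% lower among all genes, with a median of -1.11. AT2G30766 (14.9 ± 3.99 CPM in AgNPs and 1.03 ± 1.19 CPM in CK, adjusted p = 0.0247) and AT1G47395 (6.79 ± 2.95 CPM in AgNPs and 0.325 ± 0.471 CPM in CK, adjusted p = 0.026) were also among the 12 largest rises of called genes averaging at least 5 CPM in the higher group. Both were entered for the iron deficiency list but left out of its counts, because RefSeq gives them no name and calls their products uncharacterized. Over all lists 4 of 524 entries were left out because RefSeq did not name or describe them as such. Another entry of the iron deficiency list, not reported here, was among them. AgNPs 1 was the library with the most root transcripts. Without it the log2 fold changes were 8.14 for BHLH100, 6.48 for BHLH101, 0.85 for BTS and -2.76 for FER1. All 4 were still called. Root transcripts were present in every library, and their part in these values was not tested. BHLH100, BHLH101 and FER1 were called whichever library was left out. Calls were lost without CK 2 (BHLH38, BHLH39, BTS, AT2G30766, AT1G47395), without AgNPs 2 (BHLH39, BTS, FER3, FER4, AT2G30766, AT1G47395), without AgNPs 3 (FER3, AT2G30766, AT1G47395), without CK 1 (BHLH39, AT1G47395) and without Ag+ 2 (BHLH39). Called iron deficiency genes then numbered 3 without AgNPs 2 and 2 without CK 2, and called storage genes 1 without AgNPs 2. With only the 6 libraries compared, BHLH39 (adjusted p = 0.0647), AT1G47395 (0.064) and AT2G30766 (0.053) were not called.

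**Figure D1:**
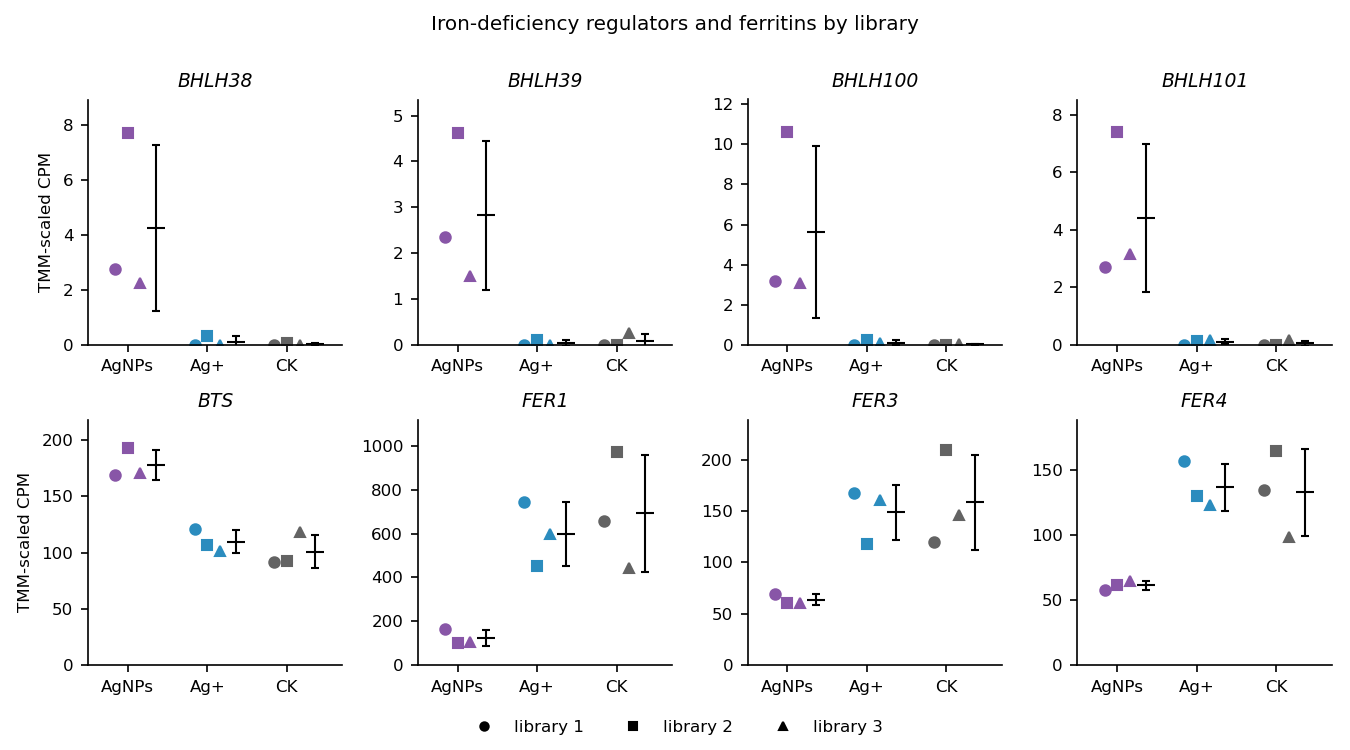
TMM-scaled CPM (linear axes from 0) of 8 iron genes in the AgNPs, Ag+ and CK libraries, with 1 marker per library and the mean ± SD of 3 libraries beside them. The 4 bHLH genes and BTS lie higher in each AgNPs library than in any other library, and the 3 ferritins lie lower, with FER1 at 98.4 to 165 CPM in AgNPs, 454 to 745 CPM in Ag+ and 445 to 975 CPM in CK.

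The iron genes were then tested directly between the silver groups. FER1 averaged 124 ± 36.4 CPM in AgNPs and 600 CPM in Ag+ (log2 fold change -2.28, SE 0.33, adjusted p = 0.035), FER4 differed by -1.15 (SE 0.18, adjusted p = 0.035) and FER3 by -1.23 (SE 0.21, adjusted p = 0.0438). NEET differed by -1.10 (adjusted p = 0.035). BHLH100 had 325 counts in AgNPs against 5 in Ag+ (log2 fold change 5.75, SE 0.84, adjusted p = 0.035), and BHLH101 differed by 5.39 (SE 0.84, adjusted p = 0.035). BHLH39 reached 160 counts in AgNPs and 2 in Ag+ (72.8 times as many, 95% counting interval 19.8 to 606, adjusted p = 0.0498), and FRO3 was higher by 0.73 (adjusted p = 0.0414). BHLH38 (5.10, adjusted p = 0.0512) and BTS (0.70, adjusted p = 0.0512) missed the threshold. In all 19889 genes this test called 136 (0.684%), 101 higher (0.508%) and 35 lower (0.176%) in AgNPs than in Ag+. Of the tested iron deficiency genes 4 of 9 were higher, and of the iron storage genes 4 of 5 were lower. Among those higher, BHLH39, BHLH100 and BHLH101 passed the filter on low counts through AgNPs. The 4 of 9 can therefore not be read against the share over all genes. Every call of this test was lost when any 1 of Ag+ 1, Ag+ 2, Ag+ 3, AgNPs 2 or AgNPs 3 was left out: edgeR then called 0 genes, with 1907 to 2757 genes at an unadjusted p under 0.05, and DESeq2, which called 868 with all 9 libraries, was not run on these subsets. Over the 9 fits without 1 library the log2 fold changes kept their sign, with FER1 between -2.55 and -2.10, while those of the bHLH genes varied widely, with BHLH100 between 4.91 and 7.23 and BHLH38 between 4.34 and 9.27.

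Copper enzyme genes stood at an intermediate level in AgNPs. CSD2 (AT2G28190), the plastid copper/zinc superoxide dismutase, had 149, 163 and 140 CPM in AgNPs 1 to 3 and 357, 235 and 282 CPM in Ag+ 1 to 3, against 34.3, 31.1 and 31.2 CPM in CK 1 to 3. The 3 groups did not overlap and AgNPs lay between the other two. The direct difference between AgNPs and Ag+ was -0.95 for CSD2 (log2, SE 0.15, adjusted p = 0.035), -0.75 for CSD1, the cytosolic form (SE 0.14, adjusted p = 0.0475), and -0.89 for CCS, the chaperone that gives both their copper (SE 0.16, adjusted p = 0.0479). FSD1 (AT4G25100), the iron form, had 633, 564 and 604 CPM in AgNPs 1 to 3, against 1234, 1420 and 1105 CPM in CK 1 to 3, so that each AgNPs library held less than any CK library (2.09-fold lower, adjusted p = 0.00472), and it did not differ detectably from Ag+ (-0.16, SE 0.14, adjusted p = 0.641). FSD3, an iron form of the plastid nucleoid, averaged 50.9 ± 0.697 CPM in AgNPs and 76.1 ± 5.22 CPM in CK (1.49-fold lower, adjusted p = 0.0267), a call lost without AgNPs 2, AgNPs 3, CK 2 or CK 3. Of the 8 genes of the list, 7 superoxide dismutases and CCS, 3 rose, 2 fell and 3 were not called, against 2.23% higher and 1.09% lower among all genes. SPL7, the transcription factor of the copper deficiency response, averaged 21 ± 1.26 CPM in AgNPs and 20.3 ± 4.33 CPM in CK (adjusted p = 0.916). Among 16 tested genes of copper transport and copper proteins, only the transporter gene COPT2 (lower) and the plastocyanin gene PETE1 (higher) were called, and the others had log2 fold changes of -0.81 to 0.43. Both calls depended on single libraries. That of COPT2 was lost without Ag+ 2, Ag+ 3, AgNPs 2, AgNPs 3, CK 1, CK 2 or CK 3, and that of PETE1 without any library except Ag+ 3. MT2A (AT3G09390), a metallothionein that binds copper, fell to 377 ± 19.3 CPM in AgNPs, against 677 ± 123 CPM in CK (1.79-fold lower, adjusted p = 0.0174). Its call was lost without AgNPs 2, AgNPs 3 or CK 2, and with only the 6 libraries compared (adjusted p = 0.0566). PCS1, the phytochelatin synthase gene, was not called (0.19, adjusted p = 0.861), and 0 of the 15 tested genes of metal chelation rose.

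Of the 12 largest falls among called genes averaging at least 5 CPM in the higher group, 5 were in genes of ethylene perception or response. OSR1 (AT2G41230), which promotes organ growth and is induced by ethylene, had 0.922, 0.295 and 0.48 CPM in AgNPs 1 to 3, against 27.6, 27.9 and 26.8 CPM in CK 1 to 3. The CK libraries were nearly equal and none of the AgNPs libraries reached 1 CPM. OSR1 was 49.3-fold lower (log2 fold change -5.62, SE 0.32, adjusted p = 0.000107). Its relatives ARL (2.62 ± 0.755 CPM in AgNPs, 34.3 ± 15.9 CPM in CK, 13.2-fold lower, adjusted p = 0.0021) and ARGOS (1.44 ± 0.27 CPM in AgNPs, 14.8 ± 8.62 CPM in CK, 10.3-fold lower, adjusted p = 0.00804) fell as well. EBP (AT3G16770), an ethylene response factor, had 16.2, 16.4 and 16.8 CPM in AgNPs 1 to 3, against 176, 256 and 159 CPM in CK 1 to 3. Within AgNPs it hardly varied, and it was 12-fold lower than in CK (SE 0.22 on the log2 scale, adjusted p = 0.000133). ACS8 (AT4G37770), which makes the ethylene precursor ACC and was named for its size of change, outside the ethylene lists, moved the other way, with 17.1, 37.7 and 35.9 CPM in AgNPs 1 to 3 against 5.56, 1.99 and 1.33 CPM in CK 1 to 3 (10.1-fold higher, adjusted p = 0.00974). AgNPs 1 was the lowest of the AgNPs libraries for ACS8 and still above every CK library, and the call was lost without CK 2 (adjusted p = 0.0533).

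Among the genes of ethylene perception and signalling, 5 of 12 fell, 0 rose and 7 were not called, beside 1.09% lower among all genes, with a median log2 fold change of -0.60. The receptor gene ERS2 (AT1G04310) was 5.15-fold lower (0.968 ± 0.301 CPM in AgNPs, 4.99 ± 1.99 CPM in CK, adjusted p = 0.00799) and the receptor gene ETR2 10.4-fold (3.17 ± 0.971 CPM in AgNPs, 33.2 ± 10.2 CPM in CK, adjusted p = 0.00236). ERS1 and EBF2, an F-box protein that removes the transcription factor EIN3, were 3.04-fold and 3.75-fold lower. CTR1, the kinase that keeps the pathway off without ethylene, had 70.8, 71.8 and 80.1 CPM in AgNPs 1 to 3, against 148, 135 and 107 CPM in CK 1 to 3, without overlap (log2 fold change -0.81, SE 0.14, adjusted p = 0.0139). The receptor genes ETR1 (0.02) and EIN4 (-0.15), the membrane protein gene EIN2 (0.01) and EIN3 (-0.13) lay near 0 and were not called. Of 15 tested genes of ethylene synthesis and response, 5 fell, among them EBP, ARGOS, ARL and OSR1, 0 rose and 10 were not called. This stands beside 1.09% lower among all genes, and the median log2 fold change was -0.28. PR4, a chitin-binding defence protein induced by ethylene, was not called (0.41, adjusted p = 0.581). In neither list did a gene rise at an unadjusted p under 0.05 in edgeR or by DESeq2 or limma voom. Of the 10 genes that fell, 9 were called in every fit that left out 1 library, and the call of CTR1 was lost without AgNPs 2 (adjusted p = 0.0735) or CK 2 (0.0646). Direct differences between AgNPs and Ag+ were not detected for any tested gene of either list, with adjusted p of 0.203 or more.

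**Figure D2:**
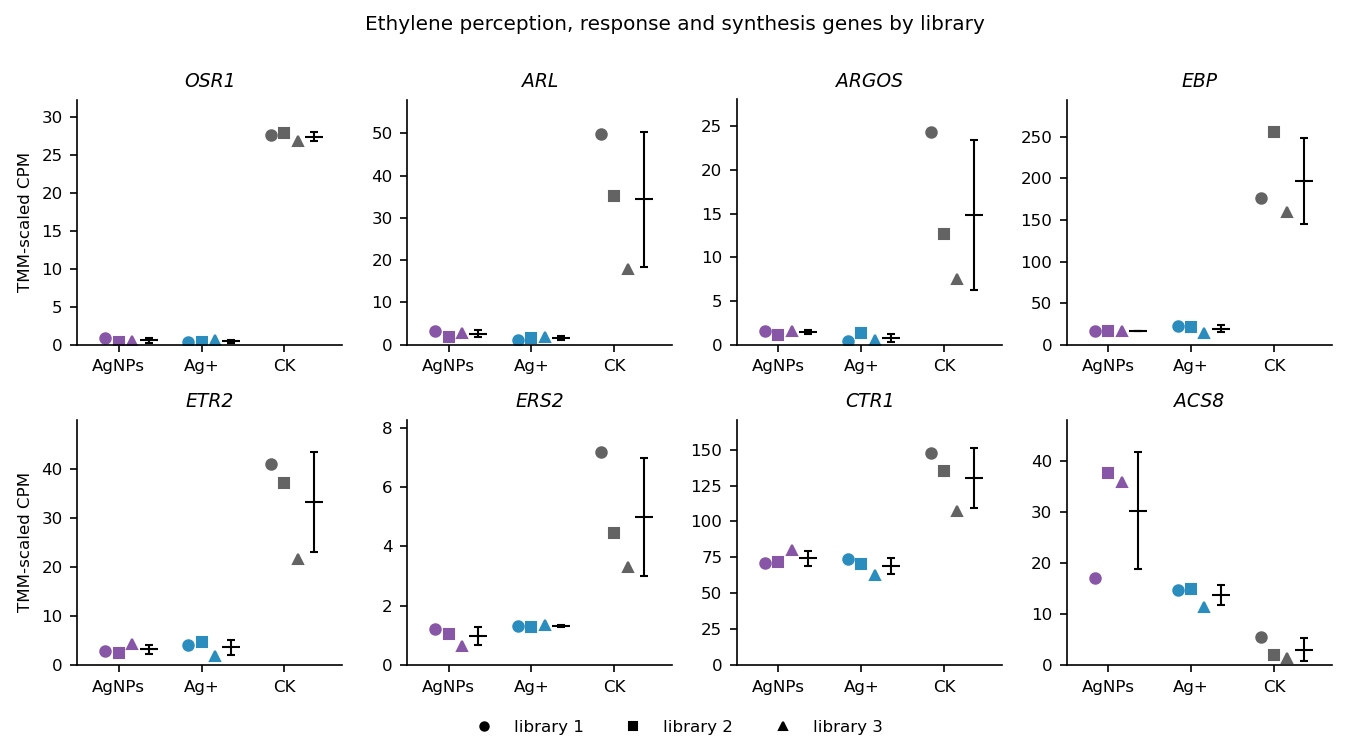
TMM-scaled CPM (linear axes from 0) of 8 ethylene genes in the AgNPs, Ag+ and CK libraries, with 1 marker per library and the mean ± SD of 3 libraries. The first 7 genes lie lower in each AgNPs library than in any CK library, and ACS8 lies higher, at 17.1 to 37.7 CPM in AgNPs and 1.33 to 5.56 CPM in CK.

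Genes of the light-harvesting antenna all had higher means with AgNPs, though few were called, and those of carbon fixation gave no call. LHCB1.2 (AT1G29910), an antenna protein around photosystem II, had 6021, 4382 and 3839 CPM in AgNPs 1 to 3, against 2254, 1993 and 1093 CPM in CK 1 to 3. Every AgNPs library lay above every CK library, AgNPs 1 was the highest and CK 3 the lowest (log2 fold change 1.42, SE 0.29, adjusted p = 0.0322). LHCA1, of the photosystem I antenna (5662 ± 1129 CPM in AgNPs, 2534 ± 769 CPM in CK, adjusted p = 0.0477), and LHCB6 (2407 ± 700 CPM in AgNPs, 1083 ± 278 CPM in CK, adjusted p = 0.0392) were called as well. Of 35 nuclear genes for photosystem and antenna proteins 3 rose (against 2.23% of all genes) and 0 fell. All 35 had a positive fold change, the ranges of 25 lay above CK (against 11.4% of all genes), and the median was 0.69, beside -0.0026 over all tested genes. The largest fold change was that of LHCB2.3 (2.85, SE 0.70), which was not called (adjusted p = 0.0676), and the copies of LHCB1 and LHCB2 are nearly identical, so that their single values are uncertain. The list summed to 148674, 108720 and 96988 CPM in AgNPs 1 to 3, against 79600, 77526 and 48755 CPM in CK 1 to 3. The 17 Calvin cycle genes, by contrast, held 0 called genes, 16 negative fold changes and a median of -0.16, with RBCS1A, a small subunit of Rubisco, at 15000 ± 1659 CPM in AgNPs and 16300 ± 3011 CPM in CK (adjusted p = 0.82). At an unadjusted p under 0.05, 4 of the 17 were lower, beside 3374 of all 19889 genes in either direction. DESeq2 called 3 lower (beside 502 among all genes) and limma voom 1 lower (beside 218).

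Among 17 tested chlorophyll synthesis genes 3 rose and 0 fell, against 2.23% higher among all genes, with 10 positive and 7 negative fold changes. GUN4 (AT3G59400), which activates the magnesium chelatase, had 124, 124 and 101 CPM in AgNPs 1 to 3, against 54.2, 41.5 and 51.4 CPM in CK 1 to 3, with no overlap (2.38-fold higher, adjusted p = 0.00233). CAO, which makes chlorophyll b (2.76-fold, adjusted p = 0.0299), and PORB, a protochlorophyllide reductase (1.84-fold, adjusted p = 0.0479), rose as well. The other 14 tested genes were not called, among them HEMA1, the first enzyme of the pathway (0.39, adjusted p = 0.632). NYC1, a chlorophyll b reductase of chlorophyll breakdown, fell to 133 ± 5.69 CPM in AgNPs, against 231 ± 25.1 CPM in CK (adjusted p = 0.0182). GUN4 was called whichever library was left out. The calls of LHCB1.2, LHCB6, LHCA1, CAO and PORB were lost without Ag+ 1, AgNPs 1, AgNPs 2 or CK 2, beside further single libraries for each, and that of NYC1 without AgNPs 2, AgNPs 3 or CK 2. Called genes of chlorophyll synthesis numbered 1 without Ag+ 1, Ag+ 2, AgNPs 1, AgNPs 2, AgNPs 3 or CK 2. Called antenna genes numbered 0 without Ag+ 1, AgNPs 1, AgNPs 2 or CK 2, 1 without Ag+ 2 or AgNPs 3, and 7 without CK 1. They numbered 15 under a replicate block and 0 with only the 6 libraries compared. DESeq2 called 18 higher (beside 945 among all genes) and limma voom 5 (beside 410).

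Heat-shock genes had a median log2 fold change of 1.15, with 23 of 25 tested genes positive, yet edgeR called 0 of them. At an unadjusted p under 0.05 there were 8 higher and 0 lower, beside 3374 of all 19889 genes in either direction. DESeq2 called 2 higher (beside 945 among all genes) and limma voom 0. HSP90.1 (AT5G52640), a stress-induced chaperone, had 88.7, 449 and 576 CPM in AgNPs 1 to 3, against 47.4, 43.6 and 412 CPM in CK 1 to 3. AgNPs 1 was low within its group and CK 3 high within its group, so that the groups overlapped (adjusted p = 0.644). HSP101, which dissolves protein aggregates, also was low in AgNPs 1 and high in CK 3 within their groups, with 29.9, 62.7 and 82.8 CPM in AgNPs 1 to 3 against 11.7, 12.2 and 66.2 CPM in CK 1 to 3. A fit without AgNPs 1 and CK 3 is not read for heat-shock genes, since these 2 libraries were chosen with their heat-shock values known. The median of the antenna list was 0.27 in that fit.

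**Figure D3:**
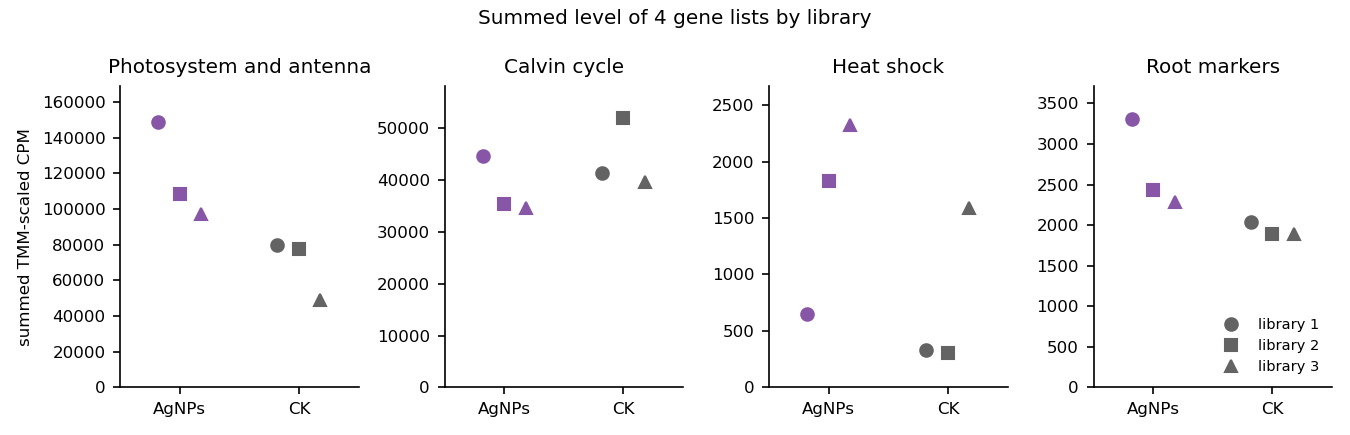
Summed TMM-scaled CPM of 4 gene lists in each AgNPs and CK library (linear axes from 0, 1 marker per library). The antenna list lies higher in all AgNPs libraries than in any CK library, the Calvin cycle sums overlap, root markers are highest in AgNPs 1, and the heat-shock sums of 647 CPM in AgNPs 1 and 1586 CPM in CK 3 depart from the other 2 libraries of their groups.

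Several genes of defence were among the 12 largest rises of called genes averaging at least 5 CPM in the higher group. AT1G66100, a thionin, a small antimicrobial peptide, had 59.8, 33.8 and 33.4 CPM in AgNPs 1 to 3, against 1.09, 1.08 and 0.614 CPM in CK 1 to 3. No library of either group came near the other (45.3-fold higher, log2 fold change 5.50, SE 0.31, adjusted p = 0.000107). Genes of jasmonate, a wound hormone, included AOS (AT5G42650), which makes its allene oxide precursor, with 351, 311 and 327 CPM in AgNPs 1 to 3 against 123, 101 and 106 CPM in CK 1 to 3. The spread within both groups was small, and AOS was 3-fold higher (adjusted p = 0.000329). VSP2, a vegetative storage protein of wounded leaves, rose 13.4-fold (26.7 ± 2.15 CPM in AgNPs, 1.96 ± 1.19 CPM in CK, adjusted p = 0.0014), its near copy VSP1 5.53-fold (adjusted p = 0.0199), and OPR3, a later enzyme of jasmonate synthesis, 1.75-fold (adjusted p = 0.0162). LOX2, an early enzyme of the pathway, averaged 501 ± 11.3 CPM in AgNPs and 245 ± 40.4 CPM in CK (adjusted p = 0.0329). Of 22 tested jasmonate genes 5 rose and 0 fell, against 2.23% higher among all genes, with a median of 0.66, and MYC2, the main transcription factor of the response, was not called (0.41). Calls were lost for OPR3 without AgNPs 3 or CK 1, for VSP1 without AgNPs 2, AgNPs 3 or CK 1, and for LOX2 without Ag+ 3, AgNPs 2, AgNPs 3, CK 1 or CK 2, and called jasmonate genes numbered 3 without AgNPs 2 or CK 1 and 2 without AgNPs 3.

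In the salicylate list, of a hormone of defence against biotrophic pathogens, 5 of 21 tested genes rose and 0 fell, against 2.23% higher among all genes, and the median was 0.30. PCC1 (AT3G22231), a membrane protein induced by pathogens, had 6.89, 7.68 and 6.45 CPM in AgNPs 1 to 3, against 0.397, 0.171 and 0.46 CPM in CK 1 to 3 (19.8-fold higher, adjusted p = 0.000755). AT3G22235, of the same family of small cysteine-rich proteins, rose 17.9-fold (7.58 ± 1.17 CPM in AgNPs, 0.415 ± 0.395 CPM in CK, adjusted p = 0.00326). LURP1 (AT2G14560), needed for resistance to downy mildew, averaged 7.18 ± 1.11 CPM in AgNPs, 21.9 CPM in Ag+ and 1.09 ± 0.349 CPM in CK. It was 6.52-fold higher in AgNPs than in CK (adjusted p = 0.00183) and lower than in Ag+ (log2 fold change -1.61, SE 0.26, adjusted p = 0.035), with no overlap among the 3 groups. PR5 rose 1.96-fold (adjusted p = 0.0128), and WRKY38, a transcription factor that dampens this defence, was called on 26 counts in AgNPs and 1 in CK (adjusted p = 0.0353). PR1, the usual marker of salicylate defence, was not called (adjusted p = 0.13), with 26 counts in AgNPs and 3 in CK (8.96 times as many, 95% counting interval 2.75 to 46.3). Genes of the salicylate pathway itself, such as ICS1 (0.26), EDS1 (0.28), PAD4 (-0.17) and NPR1 (-0.11), were not called. The call of PR5 was lost without AgNPs 2 or CK 2, and called salicylate genes then numbered 3 in both cases. That of WRKY38 was lost without Ag+ 1, Ag+ 2, AgNPs 2, AgNPs 3, CK 1 or CK 2, in limma voom (adjusted p = 0.0517) and under a replicate block (adjusted p = 0.0612).

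Glucosinolates, sulfur-rich defence compounds of this plant family, formed another group in which called genes were higher. ESP (AT1G54040), which diverts their breakdown from isothiocyanates, had 17.8, 15.8 and 13.5 CPM in AgNPs 1 to 3, against 0.943, 0.626 and 1.38 CPM in CK 1 to 3, again far apart (15.8-fold higher, adjusted p = 0.000163). Of 18 tested genes of aliphatic glucosinolates and myrosinases 4 rose (against 2.23% of all genes) and 0 fell, with a median of 0.92 and the ranges of 12 above CK (against 11.4% of all genes). The others that rose were MYB76, a regulator of the pathway (5.58-fold, adjusted p = 0.0233), FMO_GS-OX1, which modifies the side chain (2.31-fold, adjusted p = 0.011), and MAM1, which lengthens it (1.97-fold, adjusted p = 0.0299), whereas MYB28 was not called (0.65, adjusted p = 0.235). In the list of camalexin and indole glucosinolates 3 of 12 tested genes rose (against 2.23% of all genes) and 0 fell. Its median was 0.99, with the ranges of 7 above CK (against 11.4% of all genes). The 3 that rose were CYP79B2, the entry enzyme from tryptophan (126 ± 13.7 CPM in AgNPs, 57.4 ± 8.04 CPM in CK, adjusted p = 0.018), CYP83B1, which leads to indole glucosinolates (2.19-fold, adjusted p = 0.023), and CYP71A12, of the camalexin branch (6.49-fold, adjusted p = 0.0378). PAD3, the last enzyme of camalexin synthesis, averaged 20.6 ± 6.5 CPM in AgNPs and 6.05 ± 2.88 CPM in CK (adjusted p = 0.0992). ESP was called in every fit. Calls were lost without AgNPs 3 (FMO_GS-OX1, MYB76, MAM1, CYP79B2, CYP83B1), without AgNPs 2 (MYB76, MAM1, CYP83B1, CYP71A12), without CK 2 (MYB76, MAM1, CYP79B2, CYP83B1, CYP71A12), without CK 1 (MYB76, CYP79B2, CYP71A12), without CK 3 (MAM1, CYP83B1, CYP71A12), without AgNPs 1 (MAM1, CYP71A12), without Ag+ 1 (MAM1) and without Ag+ 3 (CYP71A12). In limma voom CYP71A12 was not called either (adjusted p = 0.0622). Called aliphatic genes numbered 1 without AgNPs 3, 2 without AgNPs 2 and 10 without CK 3, and called indole and camalexin genes 1 without AgNPs 2 or AgNPs 3 and 0 without CK 2.

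**Figure D4:**
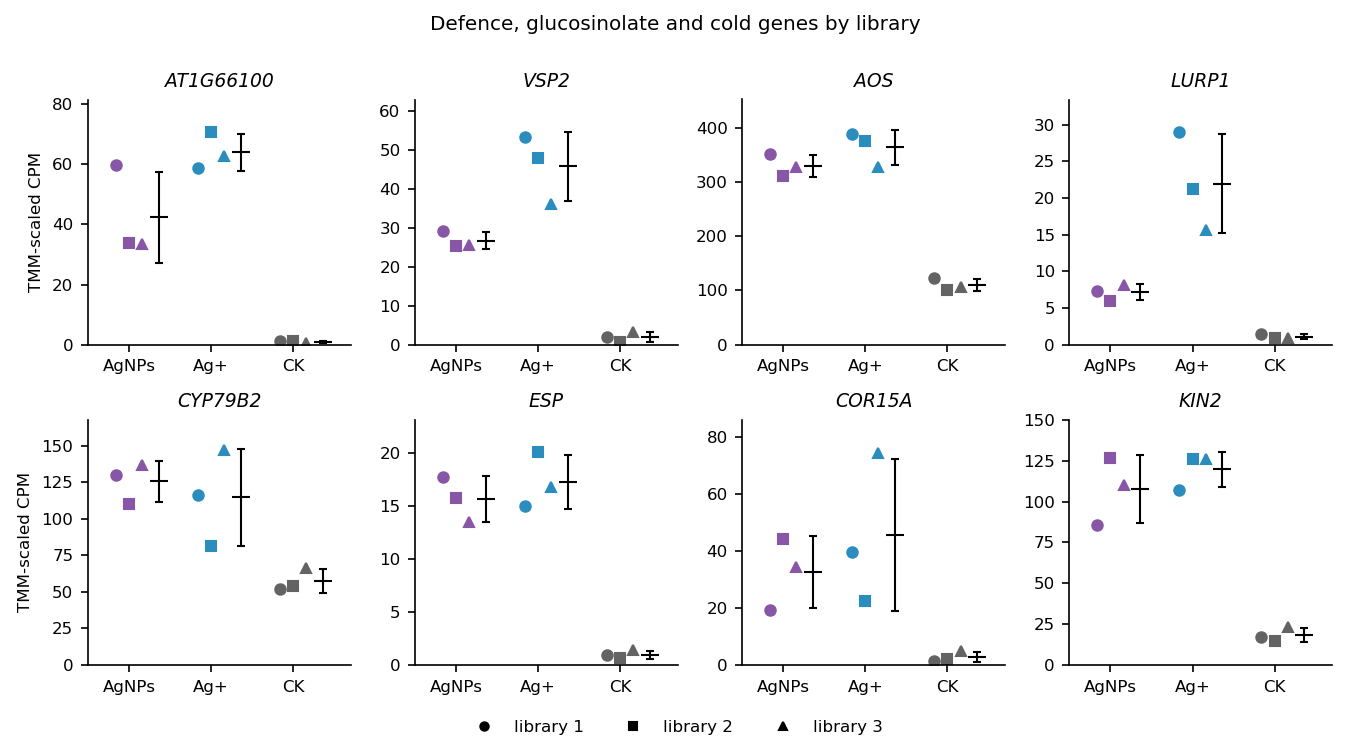
TMM-scaled CPM (linear axes from 0) of 8 defence, glucosinolate and cold genes in the AgNPs, Ag+ and CK libraries, with 1 marker per library and the mean ± SD of 3 libraries. In all 8 genes each AgNPs library lies above each CK library, and only LURP1 is called between the silver groups, with 6 to 8.21 CPM in AgNPs and 15.6 to 29 CPM in Ag+.

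Of 26 tested genes of abscisic acid, cold and drought, 6 rose. KIN2 (AT5G15970), a small protein of cold and drought stress with the near copy KIN1, had 85.9, 127 and 110 CPM in AgNPs 1 to 3, against 17.1, 14.5 and 23.4 CPM in CK 1 to 3. The groups were clearly separate (5.87-fold higher, adjusted p = 0.00038). COR15A, which protects chloroplast membranes in the cold, rose 11.5-fold (32.6 ± 12.6 CPM in AgNPs, 2.84 ± 1.78 CPM in CK, adjusted p = 0.0145), GOLS3, a galactinol synthase, 30.2-fold (3.36 ± 1.6 CPM in AgNPs, 0.104 ± 0.134 CPM in CK, adjusted p = 0.0066), and ABF3, a transcription factor of the abscisic acid response, 1.98-fold (adjusted p = 0.0113). COR15B, the near relative of COR15A, rose 2.6-fold (adjusted p = 0.0296), and NCED3, which limits abscisic acid synthesis, 4.5-fold (adjusted p = 0.0494). Beside these 6 (against 2.23% of all genes) 0 members were called lower, the median was 0.94 and the ranges of 16 lay above CK (against 11.4% of all genes). The 1 negative fold change was that of ABI1, a phosphatase that restrains the response (-0.62, adjusted p = 0.117), whose range lay below CK. RD29A, a common marker of drought, was not called (169 ± 56.3 CPM in AgNPs, 96.7 ± 58.8 CPM in CK, adjusted p = 0.379), and it was called without CK 3 (1.44, adjusted p = 0.0481), the CK library with the most heat-shock RNA. The calls were lost for COR15A without AgNPs 2 or CK 2, for ABF3 without AgNPs 2, for COR15B without Ag+ 2, AgNPs 2, AgNPs 3, CK 1 or CK 2, and for NCED3 without any library except AgNPs 1 or CK 1, and the list then held 2 called genes without AgNPs 2 and 3 without CK 2. With only the 6 libraries compared, COR15B (adjusted p = 0.077) and NCED3 (adjusted p = 0.131) were not called. NCED3 was also lost with no filter (0.073), under a replicate block (0.0542) and without AgNPs 1 and CK 3 (0.0594).

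A few genes of oxidative stress and detoxification rose, and most were not called. AOX1A (AT3G22370), the alternative oxidase of mitochondria, stood at 102 CPM in each of AgNPs 1 to 3, against 65.4, 65.7 and 56.2 CPM in CK 1 to 3. It was 1.63-fold higher than in CK (adjusted p = 0.0114) and also higher than in Ag+ (log2 fold change 0.83, SE 0.12, adjusted p = 0.0348). The stress marker gene AT2G21640 (10.1 ± 1.32 CPM in AgNPs, 2.16 ± 0.837 CPM in CK, adjusted p = 0.00525), the external NADH dehydrogenase gene NDB2 (2.81-fold, adjusted p = 0.031) and the dehydroascorbate reductase gene DHAR1 (1.65-fold, adjusted p = 0.0351) rose too, so that 4 of 18 tested genes of oxidative stress rose and 0 fell, against 2.23% higher among all genes. The peroxide-removing enzymes APX1 (-0.25) and CAT2 (0.01) and the zinc finger factor ZAT12 (0.26) were not called. Of 27 tested glutathione transferases, which attach glutathione to foreign compounds, 3 rose (against the same 2.23%) and 0 fell, namely GSTF9 (1058 ± 57.6 CPM in AgNPs, 619 ± 31.9 CPM in CK, adjusted p = 0.00646), GSTU9 (3.58-fold, adjusted p = 0.0183) and GSTU27 (1.61-fold, adjusted p = 0.0265). GSTF9 and AT2G21640 were called in every fit, AOX1A was lost without AgNPs 2 or AgNPs 3, and called oxidative stress genes numbered 1 without either of these and 2 without Ag+ 2, CK 1 or CK 2. Called glutathione transferases numbered 1 without AgNPs 2 or CK 2.

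Among 15 tested phosphate starvation genes 2 rose and 0 fell, against 2.23% higher among all genes. Both are non-coding RNAs that sequester a microRNA. IPS1 (AT3G09922) had 13.4, 34.2 and 28.7 CPM in AgNPs 1 to 3, against 4.02, 2.9 and 3.07 CPM in CK 1 to 3, and AT4 (AT5G03545) had 45.4, 49.2 and 44.7 CPM against 9.13, 13.3 and 11.5 CPM. In both genes the lowest AgNPs library exceeded the highest CK library (7.61-fold, adjusted p = 0.00383, and 4.1-fold, adjusted p = 0.00326). All 15 genes of the list had positive fold changes, with a median of 0.94, and the ranges of 4 lay above CK (against 11.4% of all genes). The list held 6 called genes without CK 3 and 9 without AgNPs 1 and CK 3, where 809 and 1603 were called among all genes. By the summed level of the list, CK 3 was the highest CK library (1051 CPM) and AgNPs 1 the lowest AgNPs library (766 CPM). These fits are therefore not read as support for a rise. Among 18 tested genes of flavonoids and anthocyanins 2 rose (against 2.23% of all genes), 0 fell and 16 were not called. The list had 10 positive and 8 negative fold changes and a median of 0.14. Called were DFR (8.07 ± 2.91 CPM in AgNPs, 1.54 ± 0.187 CPM in CK, adjusted p = 0.00295) and UF3GT (3.54-fold, adjusted p = 0.0452), both of anthocyanin synthesis, whereas CHS, the entry enzyme of flavonoids, was not called (78.7 ± 12.9 CPM in AgNPs, 84.8 ± 65.8 CPM in CK, adjusted p = 0.945). UF3GT was called only in the full set and without Ag+ 3 or CK 3 among the fits that left out 1 library, so that 1 flavonoid gene was called in the other fits.

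The lists of growth genes held few called genes each. Among 9 tested auxin genes 2 rose and 0 fell, against 2.23% higher among all genes, with a median of 0.70. In the auxin list, IAA6 (AT1G52830), a repressor of auxin responses, had 1.23, 1.62 and 1.6 CPM in AgNPs 1 to 3, against 0.149, 0.171 and 0.205 CPM in CK 1 to 3 (8.23-fold higher, adjusted p = 0.00646), and IAA19 rose 2.24-fold (adjusted p = 0.0421, called when CK 1 was left out and in no other of the 9 such fits). YUC9, an auxin synthesis enzyme outside that list, was 19.3-fold higher (5.11 ± 3.6 CPM in AgNPs, 0.255 ± 0.172 CPM in CK, adjusted p = 0.0338), a call lost without Ag+ 1, AgNPs 2, AgNPs 3, CK 1, CK 2 or CK 3 and in limma voom (adjusted p = 0.197). Of 12 cell wall genes the expansin gene EXPA8 rose (2.83-fold, adjusted p = 0.0248) and XTH15, a cell wall hydrolase, fell (4.69-fold lower, adjusted p = 0.0313). No other cell wall gene was called, against 2.23% higher and 1.09% lower among all genes. Both calls were lost without AgNPs 2, AgNPs 3 or CK 2, that of XTH15 also without Ag+ 1, Ag+ 2 or CK 1. CDF1, a repressor of flowering time genes under clock control (11 ± 1.05 CPM in AgNPs, 4.03 ± 1.41 CPM in CK, adjusted p = 0.0139), and RFNR2, a root-type ferredoxin reductase of nitrite reduction (62.4 ± 9.55 CPM in AgNPs, 34.8 ± 4.82 CPM in CK, adjusted p = 0.0169), were the single called genes of the clock list (14 tested) and the nitrate list (12 tested). Both rose, against 2.23% higher among all genes. RFNR2 was also higher than in Ag+ (log2 fold change 1.03, SE 0.15, adjusted p = 0.035). The call of CDF1 was lost without AgNPs 2 or AgNPs 3, and that of RFNR2 without AgNPs 3, CK 1 or CK 2.

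Several lists held 0 called genes in edgeR. Their other counts stand beside 3374 of all 19889 genes at an unadjusted p under 0.05 in either direction. DESeq2 called 945 of all genes higher and 502 lower. Of 15 tested genes of sulfur deficiency 3 were higher at an unadjusted p under 0.05 and DESeq2 called 2, limma voom 0. BGLU28 (AT2G44460), a beta-glucosidase of sulfur shortage, averaged 1.8 ± 1.08 CPM in AgNPs, 9.96 CPM in Ag+ and 0.476 ± 0.195 CPM in CK. It was not called against CK (adjusted p = 0.0615), while it was lower in AgNPs than in Ag+ (log2 fold change -2.49, SE 0.39, adjusted p = 0.035). Of 17 aquaporins 3 were higher at an unadjusted p under 0.05, DESeq2 called 1 and limma voom 0, with PIP2;1 at 299 ± 86.1 CPM in AgNPs and 145 ± 27.1 CPM in CK (adjusted p = 0.0707). Of 11 cell division genes none had an unadjusted p under 0.05, nor a call by DESeq2 or limma voom, and CYCB1;1, a cyclin of mitosis, averaged 9.45 ± 0.253 CPM in AgNPs and 9.92 ± 1.74 CPM in CK (adjusted p = 0.886). The 14 tested root markers had 2 higher at an unadjusted p under 0.05 and no call by either tool, with a median log2 fold change of 0.97, which was -0.35 without AgNPs 1 and between 0.26 and 1.33 in the other alternatives. Of the seed markers CRA1, a storage protein, rose (5.65 ± 1.96 CPM in AgNPs, 0.228 ± 0.129 CPM in CK, adjusted p = 0.0369), a call kept without Ag+ 2 or Ag+ 3 and lost without any of the other 7 libraries.

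**Figure D5:**
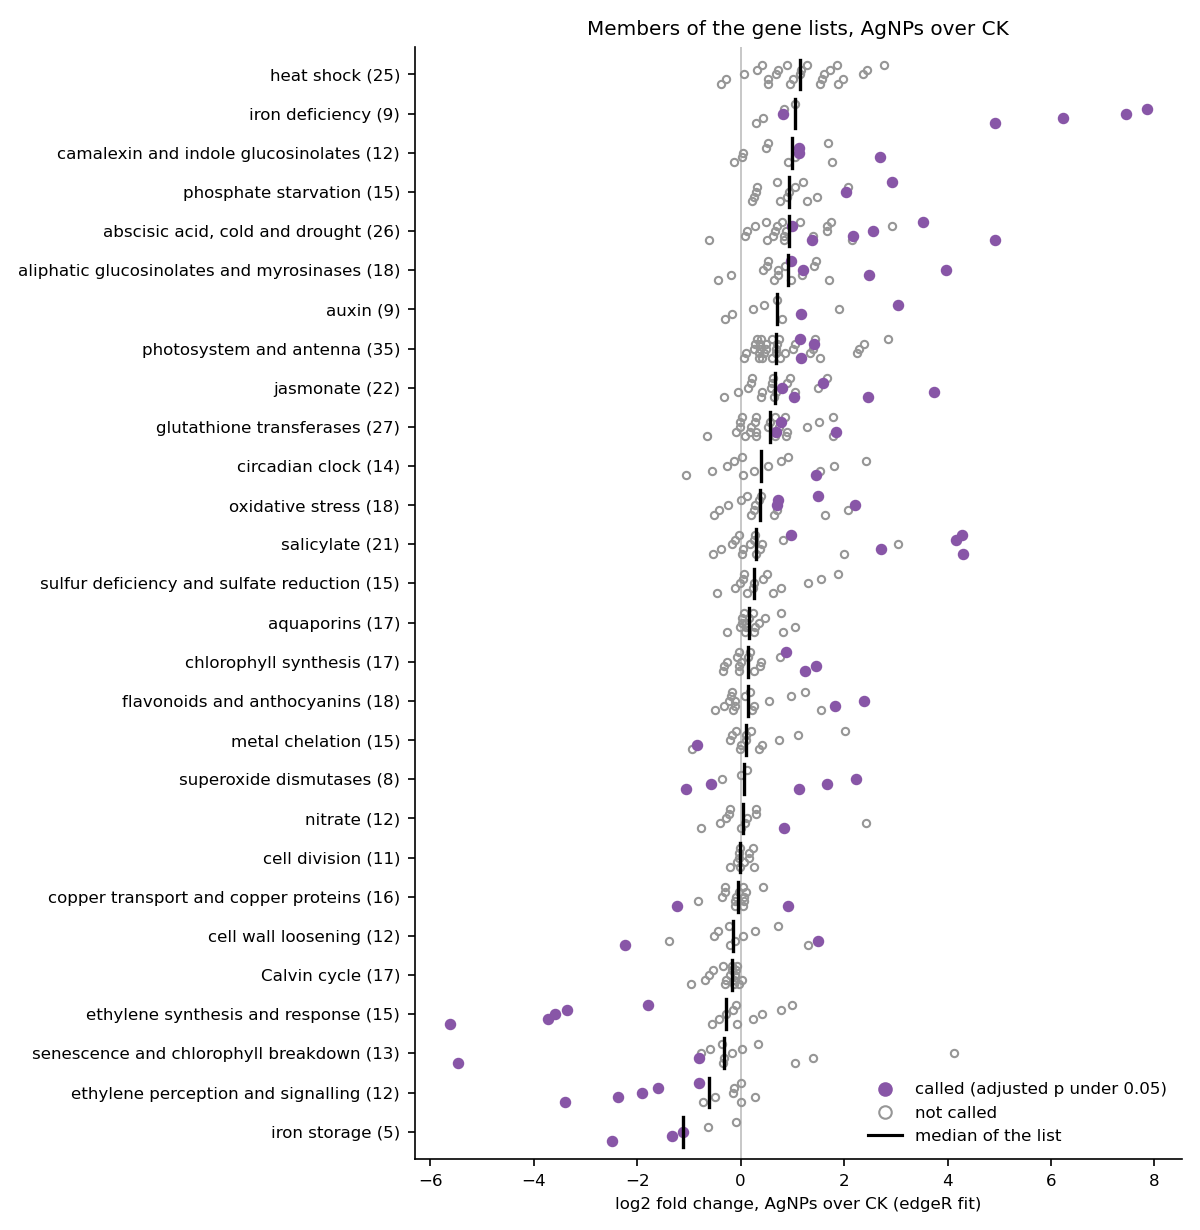
Log2 fold changes of AgNPs over CK from the edgeR fit for the tested members of 28 gene lists, with the number tested after each name, called genes filled, others open and the list median as a bar. Iron storage (median -1.11) and ethylene perception (-0.60) lie at the low end, and the 4 bHLH genes of iron deficiency are the filled points at 4.92 to 7.86.

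Other genes with the largest falls are regulators and enzymes of mixed function. AT5G57760, an uncharacterized gene, had 0 counts in the 3 AgNPs libraries against 1017 in CK, which is at least 328-fold lower (against 3 counts over the group, adjusted p = 0.000393). ORE1 (AT5G39610), a transcription factor that promotes leaf senescence, had 0.615, 0.148 and 0 CPM in AgNPs 1 to 3, against 12.3, 10.3 and 9.87 CPM in CK 1 to 3 (43.9-fold lower, adjusted p = 0.00295). HEC1, a bHLH factor of fruit and meristem development (9.19-fold lower, adjusted p = 0.0052), AT1G36060, an AP2-type DNA-binding protein (12-fold lower, adjusted p = 0.000915), THA1, a threonine aldolase (7.43-fold lower, adjusted p = 0.0153), AT5G17780, a hydrolase (10.2-fold lower, adjusted p = 0.0182), and AT3G20395, a RING-type protein (7.32-fold lower, adjusted p = 0.0308), complete the 12 largest falls with the ethylene genes above. FDH (AT5G14780), the formate dehydrogenase of mitochondria, fell to 62.4, 64 and 62 CPM in AgNPs 1 to 3, against 237, 277 and 224 CPM in CK 1 to 3. Its AgNPs libraries were nearly equal (3.92-fold lower, adjusted p = 0.00027), and the peroxidase gene AT5G64110 was 4.18-fold lower (adjusted p = 0.000329). In the other direction AAP2 (AT5G09220), an amino acid transporter of the phloem, had 223, 175 and 166 CPM in AgNPs 1 to 3, against 42.7, 41.8 and 39.8 CPM in CK 1 to 3, wide apart (4.53-fold higher, adjusted p = 0.000235). Of these genes the calls of THA1 and AT5G17780 were lost without AgNPs 2, AgNPs 3 or CK 2, and that of AT3G20395 was kept only without Ag+ 3 or CK 3. Over the 109 genes chosen by the rule for naming, 83 were called, and 39 of the 83 kept their call whichever of the 9 libraries was left out.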

How the data were processed

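RNA of Arabidopsis leaves was sequenced after depletion of ribosomal RNA as paired 150-base reads, per the labels' protocols. The deposited table holds raw counts per gene, which the authors made with HISAT2 and TAIR10, per the submitters' processing notes. No source used here names the counter or its use of strand, so near-identical copies and overlapping or antisense genes are uncertain. Of 38202 gene rows, 37897 matched RefSeq locus tags, from which names were taken, and promoters were read from TAIR10.1.

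All 9 libraries (3 per group) were fitted together in edgeR 4.0.16 under R 4.3.3: filterByExpr kept 19889 genes, TMM factors scaled libraries, and the robust quasi-likelihood test was run with Benjamini-Hochberg adjustment over all tested genes. A gene was called at an adjusted p under 0.05. SE is the size of the log2 fold change over the square root of the F statistic. CPM are TMM-scaled, with SD over 3 libraries. Intervals for counts are exact and, like the floor of 3 counts, cover counting error only. Exact permutation of 3 against 3 libraries cannot give a p under 0.1, so no such test was used. Alternatives were other scaling factors, no filter, DESeq2 1.42.0, limma voom (limma 3.58.1), a replicate block, the 6 compared libraries alone, removal of ribosomal and organelle genes, and leaving out libraries. The fit was also run on simulated counts with known changes. These had the same dispersion for every gene and no departing library, so that run says nothing about how far the calls depend on single libraries.

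The members and gene lists were chosen with earlier results of these data known. Named were, among called genes whose libraries did not overlap and whose higher group averaged at least 5 CPM, the 12 largest changes each way and the 5 smallest p each way, plus key list members and up to 4 called members per list, 109 genes in all; other genes named in the text were picked as list members after their values were seen. Some of these results are not reported here.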

Additional observations from a re-analysis of the deposited data

How the results depend on the processing

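The number of genes called between AgNPs and CK (660, of which 444 higher and 216 lower) was 1447 in DESeq2 (945 higher, 502 lower), 351 with the 6 compared libraries alone (224 higher, 127 lower) and 1603 without AgNPs 1 and CK 3 (912 higher, 691 lower), a setting planned with the heat-shock values of these libraries known. Leaving out 1 library gave 224 to 809 genes, 157 to 526 higher and 67 to 283 lower, with the lowest counts without AgNPs 2 and the highest without CK 3. Between AgNPs and Ag+ the count (136, of which 101 higher and 35 lower) was 868 in DESeq2 (637 higher, 231 lower), 47 in limma voom (32 higher, 15 lower), 408 with 6 libraries (341 higher, 67 lower) and 1276 without AgNPs 1 and CK 3 (727 higher, 549 lower), and 0 to 444 with 1 library left out (0 to 313 higher, 0 to 131 lower). The cause of each of these changes was not tested. Where libraries were left out, their number was also smaller, and the count fell in some of these fits and rose in others. Same-numbered libraries of AgNPs and CK did not deviate together (correlations of -0.114 to -0.024), nor did all of AgNPs and Ag+ (-0.206 to 0.122), so the numbers were not taken as pairs in either comparison, although those of Ag+ and CK, which are not compared here, correlated at 0.123 to 0.231; with a replicate block 668 genes were called between AgNPs and CK, 533 of them shared with the 660, and 236 between AgNPs and Ag+ (189 higher). Over the 109 named genes, no fold change reversed its sign among called values; in fits without 1 library 794 results kept their side of the threshold, 182 lost a call and 5 gained one, and in the other alternatives 917, 47 and 16. With total counts of 17293516 to 19876151 in the AgNPs and CK libraries, genes of a few counts carry wide intervals, and 3 libraries per group limit every call.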
